A study of Canis lupus familiaris with 15 samples.

Results

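The mitosis, kinetochore and spindle genes were described in 3 deposited comparisons of canine osteosarcoma cells. They were chosen by symbol alone: the centromere protein (CENP) and kinesin (KIF) families, the NDC80 complex, the spindle checkpoint, the mitotic cyclins and kinases with their regulators, and named genes of chromosome structure and cell division. A total of 85 such genes, of 7698 genes in all, were listed in at least 1 comparison, of which 70 for D17, 19 for HMPOS and 66 for HMPOS against POS.

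RNA was sequenced from 15 libraries, 3 in each of 5 groups. The lines D17, HMPOS and POS were derived from canine osteosarcoma, and HMPOS descends from POS as a sub-line that metastasizes readily. The extravasated group of D17 and that of HMPOS are sub-lines grown in culture from clusters of injected cells that had left the vessels of Tg(fli1a:EGFP) zebrafish embryos. The parental groups of D17, HMPOS and POS are the original lines, which had not been in fish. Passage through the fish, recovery from the embryo and regrowth all separate the extravasated from the parental cells and cannot be told apart here.

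Each deposited comparison gives 1 pooled expression value per group in FPKM (fragments per kilobase of transcript, scaled to the mapped fragments of the library), which is the authors' value and has no SD. The spread between libraries and the depth are therefore unknown here, and no test was made. The comparisons list only genes that the authors' test marked as significant (4412 for D17, 1189 for HMPOS and 5746 for HMPOS against POS), so every listed gene had to differ, and a gene that is not listed has no value. The group names in the tables are "meta" and "norm". POS, with parental libraries alone, carries the name "norm". That name was therefore taken to mean parental and "meta" extravasated, and every direction given for D17 and HMPOS rests on that reading. The "norm" values of HMPOS are also those that enter the comparison with POS, where they differed by at most 0.128% over 16 genes. The article, however, gives more genes as downregulated than as upregulated after extravasation in both lines. This is close to, but in neither line the same as, the split of the deposited values with the names exchanged. The authors' fold changes run as second over first group. Their sign, if taken as extravasated over parental, would give a similar split without an exchange of names. The direction is therefore not settled for D17 and HMPOS. With the names exchanged, each ratio of extravasated over parental cells would keep its size and change its sign, and lower would read higher throughout. The ratios of HMPOS over POS would keep their size and sign, but they would be those of extravasated HMPOS over POS. Log2 ratios were computed from the group values, as extravasated over parental cells or as HMPOS over POS. Of 10 osteoblast markers, 5 were listed for D17, with COL1A2, a chain of type I collagen, at 1359.7 FPKM after extravasation and 493 FPKM in the parental line. HMPOS also listed 5, with 4 higher and 1 lower after extravasation. SPARC, a bone matrix protein, was at 2897 FPKM after extravasation and 1777 FPKM in the parental line. IBSP, which encodes bone sialoprotein, was the lower one and the only one of the 5 past a 2-fold difference, at 0.427 FPKM after extravasation and 2.05 FPKM in the parental line. Of 12 markers of endothelial, blood and epithelial cells, D17 listed EPCAM alone, at 1.72 FPKM after extravasation and 0.431 FPKM in the parental line, and HMPOS listed none.

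At mitosis, CDK1 with cyclin B drives entry, and the Aurora, PLK1 and NEK2 kinases build and control the spindle. Each centromere carries the histone variant CENPA, on which the inner kinetochore assembles, and the NDC80 complex of the outer kinetochore grips the microtubules. The spindle checkpoint holds back CDC20 until every chromosome is attached, after which separase cuts cohesin, kinesins separate the poles and anillin, ECT2 and PRC1 help to divide the cell. Most of these genes are transcribed mainly in the G2 and M phases, so in bulk RNA fewer dividing cells and less RNA per dividing cell cannot be told apart.

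With "meta" read as extravasated, mitosis genes of D17 were lower in extravasated than in parental cells, and with the names exchanged they would be higher. Of the 70 genes listed, 67 were lower and 3 higher, whereas 45.8% of all genes listed for D17 were lower and 54.2% higher. Past a 2-fold difference, 45 of the 70 were lower and 1 was higher, beside 8.50% and 18.3% of all listed genes. The median log2 ratio was -1.14, and that of all listed genes was 0.39. Relative to the latter, 62 of the 70 were more than 2-fold lower and 1 more than 2-fold higher, beside 23.0% and 10.8% of all listed genes on the same scale. Since the listing required a difference, these figures describe the listed genes alone. Of the 70 genes, 8 are kinesins of intracellular transport or of unsettled role, or matched the symbol rule by name alone. Values after extravasation were lower for all of the other 62, whose median log2 ratio was -1.15 and whose quartiles were -1.28 and -0.95. Among all 2022 listed genes with a lower value in extravasated D17 cells, the median was -0.62 and the quartiles were -0.87 and -0.46.

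**Figure D1:**
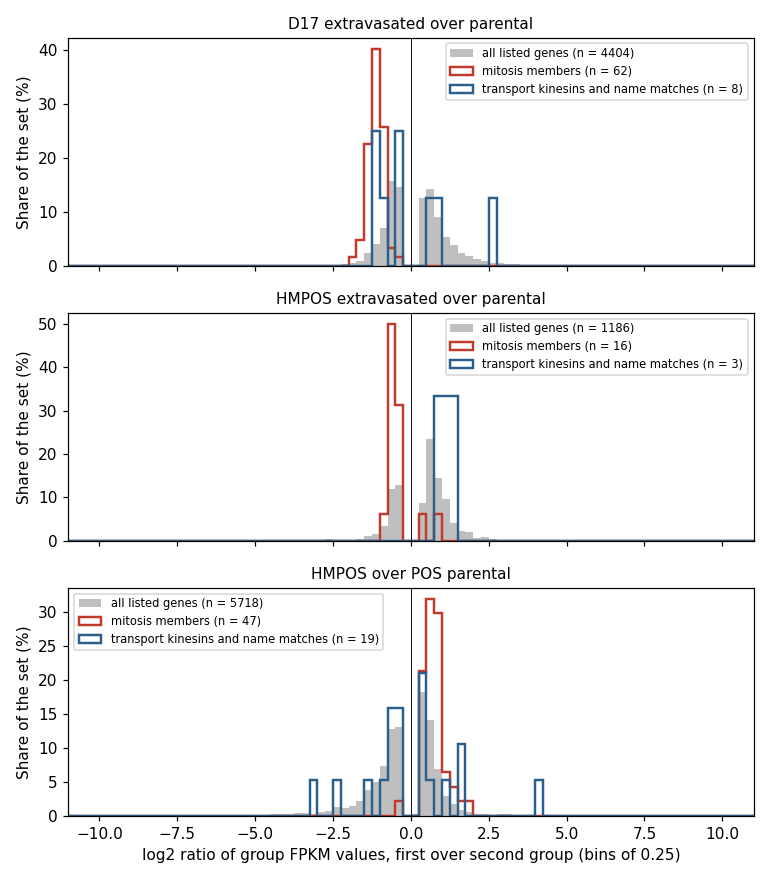
Histograms of the log2 ratio of group FPKM values (horizontal axis, bins of 0.25) as the share of each set in percent (vertical axis), for D17, HMPOS and HMPOS against POS; grey is all listed genes with a value above 0 in both groups, red the mitosis members and blue the transport kinesins and name matches. The 62 red genes of D17 lie to the left of 0, and 46 of the 47 red genes of HMPOS against POS lie to the right.

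CENPQ, a subunit of the inner kinetochore, was at 9.901 FPKM after extravasation and 19.1 FPKM in the parental line in D17. Its log2 ratio was -0.95, a value 1.93-fold lower in extravasated cells. It is listed as ENSCAFG00000002126 on chromosome 12 from 17339125 to 17356310. Extravasated cells had less than the parental cells for each of the 12 centromere and inner kinetochore genes listed for D17, with log2 ratios from -1.42 to -0.76. CENPA, the histone variant that marks the centromere, was at 57.6 FPKM after extravasation and 131 FPKM in the parental line, a log2 ratio of -1.18. It was the inner kinetochore gene with the highest parental FPKM, next to CENPH at 58.5 FPKM after extravasation and 129 FPKM in the parental line. CENPH, CENPI, CENPK and CENPM form one subcomplex of the inner kinetochore, and all 4 were listed. CENPK was at 18.7 FPKM after extravasation and 46.2 FPKM in the parental line, and CENPM at 12.4 FPKM after extravasation and 31.04 FPKM in the parental line. CENPI was the lowest of the 4, at 5.78 FPKM after extravasation and 10.6 FPKM in the parental line. The ratios of the 4 subunits ran from -1.32 to -0.88, while their parental values ran from 10.6 to 128.8 FPKM. Subunits of 1 complex thus differed far more in level than in ratio.

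CENPL and CENPN, which pair in the inner kinetochore and of which CENPN binds CENPA nucleosomes, were both lower in extravasated D17 cells. CENPL, at 3.67 FPKM after extravasation and 9.79 FPKM in the parental line, had the lowest ratio of the group, -1.42. CENPN was at 20.2 FPKM after extravasation and 40.4 FPKM in the parental line. CENPW, a histone-fold partner of CENPT, was at 7.57 FPKM after extravasation and 18.2 FPKM in the parental line. Its companion in that histone-fold complex, CENPS, had the smallest difference of the 12, at 35.4 FPKM after extravasation and 60.01 FPKM in the parental line and a log2 ratio of -0.76. CENPP and CENPU belong to the same subcomplex as CENPQ. CENPU was at 6.81 FPKM after extravasation and 11.8 FPKM in the parental line, and CENPP at 14.3 FPKM after extravasation and 24.7 FPKM in the parental line. The CENPP locus overlaps that of OGN, which is also listed for D17, so reads of the pair may be divided between them.

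The NDC80 complex, the main microtubule coupler of the kinetochore, was lower in all 4 subunits. NDC80 was at 16.8 FPKM after extravasation and 31.3 FPKM in the parental line and its partner NUF2 at 15.8 FPKM after extravasation and 31.05 FPKM in the parental line. SPC24 was at 18.7 FPKM after extravasation and 34.6 FPKM in the parental line and SPC25, which pairs with it, at 19.03 FPKM after extravasation and 43.6 FPKM in the parental line. Here the subunits were also close in level, from 31.0 to 43.6 FPKM in parental and from 15.8 to 19.0 FPKM in extravasated cells, with log2 ratios from -1.196 to -0.885. CENPE, a kinesin-like motor of the kinetochore corona, differed most among the outer kinetochore genes, at 6.26 FPKM after extravasation and 17.4 FPKM in the parental line and a log2 ratio of -1.48. KNTC1, a part of the RZZ complex that brings dynein and checkpoint proteins to the kinetochore, was at 7.57 FPKM after extravasation and 18.6 FPKM in the parental line. ZWINT, which links KNL1 to that complex, was at 21.8 FPKM after extravasation and 38.1 FPKM in the parental line, a log2 ratio of -0.80 and the smallest of this group of 7.

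All 5 spindle checkpoint genes that D17 listed were lower in extravasated cells. BUB1, the kinase that recruits checkpoint proteins to kinetochores, was at 30.2 FPKM after extravasation and 76.6 FPKM in the parental line, a log2 ratio of -1.34. TTK, the kinase at the head of the checkpoint, was at 8.602 FPKM after extravasation and 20.4 FPKM in the parental line. BUB1B, which encodes the checkpoint protein BUBR1, was at 23.5 FPKM after extravasation and 51.9 FPKM in the parental line. CDC20, the activator of the anaphase promoting complex that the checkpoint restrains, was at 23.4 FPKM after extravasation and 45.3 FPKM in the parental line. BUB3, which also has roles outside mitosis, was at 36.8 FPKM after extravasation and 52.7 FPKM in the parental line, and its log2 ratio of -0.52 was the smallest of the 5.

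The chromosomal passenger complex, which corrects faulty attachments and acts in cytokinesis, was listed in full for D17. AURKB, its kinase, was at 27.6 FPKM after extravasation and 57.6 FPKM in the parental line, and INCENP, its scaffold, at 18.6 FPKM after extravasation and 46.9 FPKM in the parental line. BIRC5, which encodes survivin, had the highest FPKM of the D17 members, at 140.2 FPKM after extravasation and 297 FPKM in the parental line. CDCA8, which encodes borealin, was at 24.2 FPKM after extravasation and 53.4 FPKM in the parental line. The 4 genes were each past a 2-fold difference, with log2 ratios from -1.33 to -1.06.

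Cyclins, kinases and phosphatases of mitotic entry were lower in extravasated D17 cells for 9 of 9 listed genes. CCNA2, the cyclin A of dividing somatic cells, was at 46.6 FPKM after extravasation and 125 FPKM in the parental line, a log2 ratio of -1.42. CCNB2, a cyclin B, was at 48.2 FPKM after extravasation and 92.6 FPKM in the parental line, and CDK1, the kinase that both bind, at 80.4 FPKM after extravasation and 139.6 FPKM in the parental line. The log2 ratio of CDK1, -0.80, was the smallest of the 9, and it stayed short of a 2-fold difference. AURKA, the spindle pole kinase, was at 62.7 FPKM after extravasation and 139.5 FPKM in the parental line, and PLK1 at 49.7 FPKM after extravasation and 110.2 FPKM in the parental line. NEK2, a centrosome kinase, was at 19.2 FPKM after extravasation and 43.4 FPKM in the parental line. All 3 of these kinases were past a 2-fold difference. The CDC25 phosphatases, which remove inhibitory phosphates from cyclin-dependent kinases, differed among themselves. CDC25A, which also acts at the start of S phase, was at 6.51 FPKM after extravasation and 19.5 FPKM in the parental line, a log2 ratio of -1.58. CDC25C was at 3.9999 FPKM after extravasation and 9.76 FPKM in the parental line, and CDC25B at 36.1 FPKM after extravasation and 68.6 FPKM in the parental line, a log2 ratio of -0.93 that did not reach 2-fold.

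Among kinesins with a role in division, 12 of 12 were lower in extravasated D17 cells and 10 were past a 2-fold difference. KIF15, which helps to keep the spindle bipolar, had the lowest ratio of all members in D17, at 10.4 FPKM after extravasation and 35.9 FPKM in the parental line and a log2 ratio of -1.79. KIF11, the motor that pushes the spindle poles apart, was at 19.2 FPKM after extravasation and 44.9 FPKM in the parental line. KIF23, a motor of the central spindle, had the highest parental FPKM of the 12, at 53.97 FPKM after extravasation and 123 FPKM in the parental line. KIF20A, which acts in cytokinesis, was at 29.2 FPKM after extravasation and 63.2 FPKM in the parental line, and KIF22, which binds chromosomes, at 27.6 FPKM after extravasation and 60.1 FPKM in the parental line. KIF14 and KIF20B also act in cytokinesis, with KIF14 at 6.597 FPKM after extravasation and 12.5 FPKM in the parental line and KIF20B at 12.01 FPKM after extravasation and 24.8 FPKM in the parental line. Kinesins that shorten microtubules covered a wide range. KIF2C, the depolymerase of mitotic centromeres, was at 12.3 FPKM after extravasation and 28.03 FPKM in the parental line, a log2 ratio of -1.19. KIF18A was at 6.9003 FPKM after extravasation and 14.2 FPKM in the parental line, and KIF18B at 7.41 FPKM after extravasation and 17.7 FPKM in the parental line. KIF2A, which is also used by cells that do not divide, was at 53.02 FPKM after extravasation and 69.1 FPKM in the parental line, and its log2 ratio of -0.38 was the smallest among the 62. KIF24, a kinesin of the centriole, was the least abundant of the 12, at 1.49 FPKM after extravasation and 4.29 FPKM in the parental line.

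Genes of spindle assembly and cytokinesis were lower for 7 of 7. TPX2, the activator of Aurora A on the spindle, was at 70.8 FPKM after extravasation and 156 FPKM in the parental line. ANLN, which encodes the cleavage furrow protein anillin, was at 33.1 FPKM after extravasation and 85.8 FPKM in the parental line and had the lowest log2 ratio of the 7, -1.37. PRC1, the crosslinker of the central spindle, was at 34.03 FPKM after extravasation and 84.7 FPKM in the parental line, and ECT2, the exchange factor that turns on RhoA at the furrow, at 9.96 FPKM after extravasation and 22.7 FPKM in the parental line. CDCA3, a gene of mitotic entry that was placed in this group, was at 122 FPKM after extravasation and 241 FPKM in the parental line. It was among the most abundant members, after BIRC5. ASPM, a protein of the spindle poles, was at 8.31 FPKM after extravasation and 15.8 FPKM in the parental line, and CKAP2, a microtubule protein, at 20.997 FPKM after extravasation and 32.1 FPKM in the parental line.

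Genes of chromosome structure and separation were past a 2-fold difference for 6 of 6. SMC2 and SMC4 form the core of condensin, which compacts mitotic chromosomes. SMC2 was at 8.42 FPKM after extravasation and 26.2 FPKM in the parental line, a log2 ratio of -1.64 and after KIF15 the lowest in D17, while SMC4 was at 24.3 FPKM after extravasation and 49.99 FPKM in the parental line, a log2 ratio of -1.04. TOP2A, the topoisomerase that untangles sister chromatids, was at 42.9 FPKM after extravasation and 116 FPKM in the parental line, and ESPL1, which encodes separase, at 9.604 FPKM after extravasation and 22.1 FPKM in the parental line. CDCA5, which encodes the cohesin protector sororin, was at 33.4 FPKM after extravasation and 79.4 FPKM in the parental line. CDCA2, which recruits a phosphatase to chromosomes at mitotic exit, was at 9.14 FPKM after extravasation and 21.7 FPKM in the parental line.

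**Figure D2:**
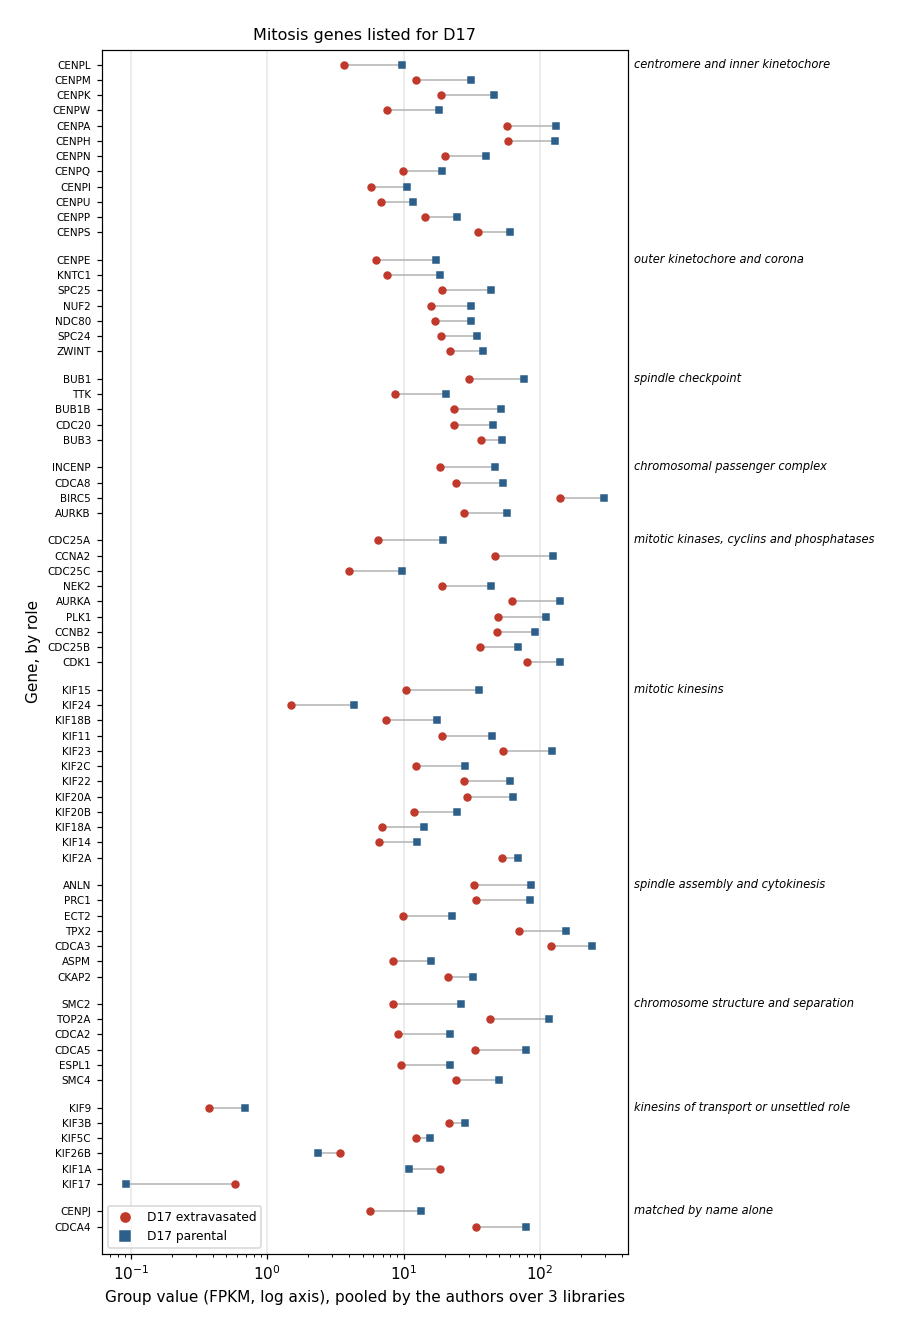
Group FPKM (horizontal log axis) of the 70 listed genes of D17 (vertical axis, by role), with a red circle for extravasated and a blue square for parental cells, each pooled by the authors over 3 libraries. In every role group of mitosis genes the red circles lie to the left of the blue squares, and the kinesins of transport or unsettled role go both ways.

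The 8 remaining genes of D17 did not share a direction. Of 6 kinesins of transport or unsettled role, 3 were lower and 3 higher in extravasated cells. KIF1A, a motor of axonal transport, was at 18.6 FPKM after extravasation and 11.04 FPKM in the parental line, and KIF26B at 3.44 FPKM after extravasation and 2.34 FPKM in the parental line. KIF17, a motor of dendrites and cilia, had a log2 ratio of 2.66, but at low values of 0.575 FPKM after extravasation and 0.0911 FPKM in the parental line. The lower ones, KIF3B, KIF5C (at 12.2 FPKM after extravasation and 15.7 FPKM in the parental line) and KIF9, had log2 ratios of -0.40, -0.36 and -0.88, none of them past 2-fold. CENPJ, a centriole protein despite its name, was at 5.63 FPKM after extravasation and 13.3 FPKM in the parental line, and CDCA4, a transcription cofactor, at 33.8 FPKM after extravasation and 78.5 FPKM in the parental line. Both of these were past a 2-fold difference.

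In HMPOS, the list was shorter, with 19 mitosis genes of 1189 listed, beside 70 of 4412 for D17. Mitosis genes thus made up a similar share of both lists, and their differences were smaller in HMPOS. Of 19 genes, 14 were lower and 5 higher in extravasated cells under the same reading, beside 33.0% and 67.0% of all genes listed for HMPOS. With the names exchanged, 14 would be higher and 5 lower, and the shares would change places as well. Past a 2-fold difference, 0 of the 19 were lower and 2 higher, beside 4.79% and 20.5% of all listed genes. The median log2 ratio was -0.46, and that of all listed genes was 0.58. Relative to the latter, 11 of the 19 were more than 2-fold lower and 0 more than 2-fold higher, beside 30.4% and 6.06% of all listed genes on that scale. Without the 3 transport kinesins, the 16 genes, 14 lower and 2 higher, had a median of -0.52. Among all listed genes with a lower value in extravasated HMPOS cells, the median was -0.54 and the quartiles were -0.74 and -0.46. The median of the 16 genes thus lay between these quartiles. In D17, the median of the 62 genes, -1.15, lay below the lower quartile of all lower genes, -0.87.

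CENPQ had the lowest ratio of extravasated over parental cells of the HMPOS members, and KIF26B the highest, 1.30. With the names exchanged, CENPQ would have the highest and KIF26B the lowest. CENPQ was at 15.002 FPKM after extravasation and 27.01 FPKM in the parental line, a log2 ratio of -0.85, or 1.801-fold lower in extravasated cells. The other listed gene of the inner kinetochore, CENPL, was at 9.37 FPKM after extravasation and 14.5 FPKM in the parental line. In the outer kinetochore, CENPE was at 24.9 FPKM after extravasation and 37.7 FPKM in the parental line, a log2 ratio of -0.60. NDC80 was at 57.7 FPKM after extravasation and 84.04 FPKM in the parental line and NUF2 at 33.1 FPKM after extravasation and 49.9 FPKM in the parental line, so this pair of the NDC80 complex was lower. SPC24, of the same complex, was higher, at 23.8 FPKM after extravasation and 16.9 FPKM in the parental line and a log2 ratio of 0.49, and SPC25 was not listed. Relative to the median of all listed genes, the ratio of SPC24 was -0.092, so its direction depends on the scaling.

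CDK1 had the highest FPKM of the HMPOS members, at 233 FPKM after extravasation and 316 FPKM in the parental line and a log2 ratio of -0.44. CCNB2 was at 91.5 FPKM after extravasation and 119.7 FPKM in the parental line, and CDC25C at 7.34 FPKM after extravasation and 11.02 FPKM in the parental line. CCNA1, the cyclin A of the germ line, was higher in extravasated cells, but low in both groups, at 1.31 FPKM after extravasation and 0.667 FPKM in the parental line. The checkpoint genes BUB1B and TTK were both lower. BUB1B was at 65.9 FPKM after extravasation and 90.9 FPKM in the parental line, and TTK at 20.4 FPKM after extravasation and 27.2 FPKM in the parental line. Of the cytokinesis motors, KIF14 was at 16.8 FPKM after extravasation and 24.3 FPKM in the parental line, and KIF20B at 36.8 FPKM after extravasation and 52.3 FPKM in the parental line. The spindle pole protein ASPM was at 22.1 FPKM after extravasation and 29.3 FPKM in the parental line, and the condensin core gene SMC2 at 44.3 FPKM after extravasation and 64.2 FPKM in the parental line. These 6 genes, BUB1B to SMC2, lay within a narrow range, from -0.53 to -0.40 on the log2 scale. The kinesins of transport or unsettled role were 3 of 3 higher, and each stayed below 2 FPKM. KIF26B was at 1.298 FPKM after extravasation and 0.529 FPKM in the parental line, KIF19 at 1.83 FPKM after extravasation and 0.863 FPKM in the parental line and KIF21B at 1.15 FPKM after extravasation and 0.653 FPKM in the parental line.

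**Figure D3:**
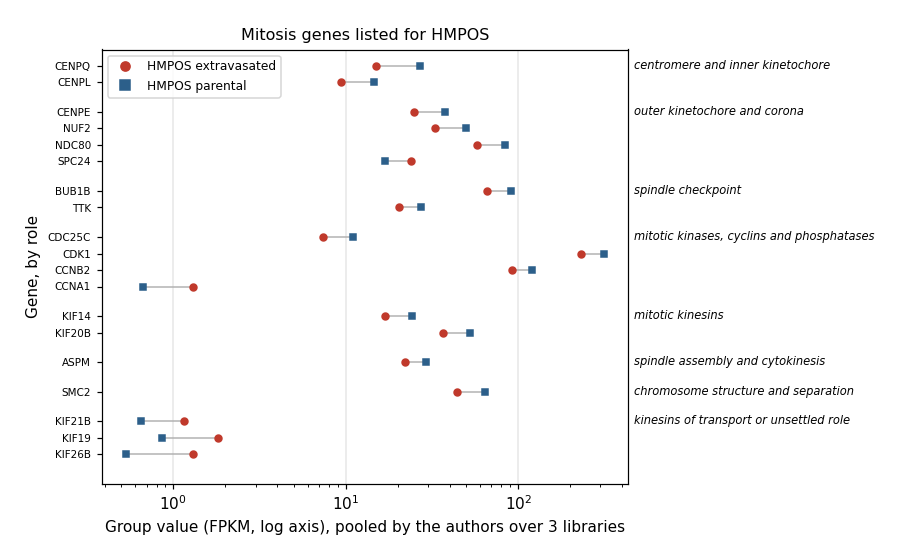
Group FPKM (horizontal log axis) of the 19 listed genes of HMPOS (vertical axis, by role), with a red circle for extravasated and a blue square for parental cells, each pooled by the authors over 3 libraries. The 14 lower genes are all at or above 7.34 FPKM in both groups, whereas of the 5 higher ones CCNA1 and the transport kinesins are below 2 FPKM and SPC24 is not.

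Of the 85 genes, 16 were listed for both D17 and HMPOS, which is 22.9% of the D17 members and 84.2% of the HMPOS members. The overlap and shared direction of all genes listed for both lines were not computed. Whether these counts are particular to mitosis genes is therefore unknown. Under the reading of the names given above, extravasated cells of both lines had lower values for 14 of them and higher values for 1, KIF26B, while SPC24 was lower in D17 and higher in HMPOS. The 14 lower genes were CENPQ, CENPL, CENPE, NDC80, NUF2, BUB1B, TTK, CDK1, CCNB2, CDC25C, KIF14, KIF20B, ASPM and SMC2. Each of the 14 had a smaller log2 difference in HMPOS than in D17. The lines were closest for CENPQ, with log2 ratios of -0.85 in HMPOS and -0.95 in D17. They were farthest apart for SMC2, with -0.53 in HMPOS and -1.64 in D17. SPC24 had log2 ratios of 0.49 in HMPOS and -0.89 in D17. None of these differences between the lines could be tested, and the tables of the lines were made separately.

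Under the same reading of the names, parental HMPOS cells had higher values than parental POS cells for 55 of the 66 mitosis genes listed. Values were lower for 11. With the names exchanged, the HMPOS cells of this comparison would be the extravasated ones. Of all genes listed for HMPOS against POS, 47.7% were higher and 52.3% lower in HMPOS. Past a 2-fold difference, 11 of the 66 were higher and 3 lower, beside 8.49% and 19.1% of all listed genes. The median log2 ratio was 0.61, and that of all listed genes was -0.31. Relative to the latter, 28 of the 66 were more than 2-fold higher and 3 more than 2-fold lower, beside 17.5% and 13.2% of all listed genes on this scale. Without the 18 kinesins of transport or unsettled role and MAD2L2, 46 of 47 genes were higher in HMPOS, with a median of 0.71 and quartiles of 0.51 and 0.90. The exception was CENPM, of the inner kinetochore, at 12.2 FPKM in HMPOS compared with 16.5 FPKM in POS.

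The largest of these 46 differences was that of the cytokinesis exchange factor ECT2, at 101 FPKM in HMPOS compared with 28.4 FPKM in POS and a log2 ratio of 1.83. CCNA2 was at 149.6 FPKM in HMPOS compared with 47.9 FPKM in POS, a log2 ratio of 1.64, and AURKA at 155 FPKM in HMPOS compared with 61.6 FPKM in POS, a log2 ratio of 1.34. The locus of CCNA2 overlaps that of EXOSC9, which is also listed. SMC4 was at 158 FPKM in HMPOS compared with 60.7 FPKM in POS, a larger difference than that of its condensin partner SMC2, at 64.1 FPKM in HMPOS compared with 34.5 FPKM in POS. CDC25C was at 11.01 FPKM in HMPOS compared with 4.65 FPKM in POS, CENPE at 37.7 FPKM in HMPOS compared with 17.4 FPKM in POS and CDC20 at 59.7 FPKM in HMPOS compared with 28.6 FPKM in POS. These 7 genes were the ones past a 2-fold difference in the 8 role groups of mitosis.

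Other genes of mitotic entry were higher in HMPOS than in POS by less than 2-fold. CDK1 had the highest FPKM of the members, at 316 FPKM in HMPOS compared with 219 FPKM in POS, and PLK1 came close to 2-fold, at 130.1 FPKM in HMPOS compared with 66.1 FPKM in POS. CCNB2 was at 119.6 FPKM in HMPOS compared with 72.4 FPKM in POS, NEK2 at 54.4 FPKM in HMPOS compared with 29.5 FPKM in POS and CDC25B at 56.3 FPKM in HMPOS compared with 35.7 FPKM in POS. At the kinetochore, CENPQ was at 26.99 FPKM in HMPOS compared with 14.3 FPKM in POS, the largest difference of the inner kinetochore with a log2 ratio of 0.91. CENPC, the scaffold of the inner kinetochore, was listed in this comparison alone, at 92.5 FPKM in HMPOS compared with 74.1 FPKM in POS. CENPL was at 14.5 FPKM in HMPOS compared with 9.83 FPKM in POS, NDC80 at 83.96 FPKM in HMPOS compared with 43.8 FPKM in POS and SPC25 at 154 FPKM in HMPOS compared with 90.1 FPKM in POS. The 5 checkpoint genes, the 3 listed genes of the passenger complex and the 9 kinesins of division were all higher. Their log2 ratios ran from 0.32 to 1.06, from 0.25 to 0.86 and from 0.29 to 0.90. Among them, BUB1B was at 90.8 FPKM in HMPOS compared with 51.3 FPKM in POS and TTK at 27.1 FPKM in HMPOS compared with 17.5 FPKM in POS. KIF14 was at 24.3 FPKM in HMPOS compared with 16.9 FPKM in POS, KIF20B at 52.3 FPKM in HMPOS compared with 41.02 FPKM in POS and the spindle pole gene ASPM at 29.2 FPKM in HMPOS compared with 20.6 FPKM in POS. TOP2A was at 155 FPKM in HMPOS compared with 103 FPKM in POS, CDCA3 at 187 FPKM in HMPOS compared with 104 FPKM in POS and TPX2 at 175 FPKM in HMPOS compared with 105 FPKM in POS, each above 100 FPKM in both lines.

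The transport kinesins again went both ways, with 9 of 18 higher and 9 lower in HMPOS, and they spanned the widest range of ratios. KIF26A was at 0.721 FPKM in HMPOS compared with 0.04102 FPKM in POS, a log2 ratio of 4.14 between low values. KIF1A was at 0.705 FPKM in HMPOS compared with 6.18 FPKM in POS, a log2 ratio of -3.13. KIF26B was at 0.528 FPKM in HMPOS compared with 2.602 FPKM in POS, and KIF5A, a neuronal motor, at 2.26 FPKM in HMPOS compared with 5.81 FPKM in POS. KIF9 had the next lowest ratio of these kinesins, -0.68, at 0.841 FPKM in HMPOS compared with 1.34 FPKM in POS. KIF5C, which belongs to the same kinesin family as KIF5A, was higher in HMPOS, at 2.82 FPKM in HMPOS compared with 0.854 FPKM in POS, as were KIF21B at 0.652 FPKM in HMPOS compared with 0.217 FPKM in POS and KIF19 at 0.863 FPKM in HMPOS compared with 0.376 FPKM in POS. The abundant family member KIF5B, the conventional kinesin of most cells, had the ratio nearest to 0 of the 18, 0.27, at 76.1 FPKM in HMPOS compared with 63.2 FPKM in POS. KIF3C had a log2 ratio of -0.30, which became 0.0086 relative to the median of all listed genes, so its direction depends on the scaling. MAD2L2, which shares a domain with the checkpoint protein MAD2 but acts in DNA repair as REV7, was at 11.5 FPKM in HMPOS compared with 21.1 FPKM in POS, and its locus overlaps that of FBXO6.

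**Figure D4:**
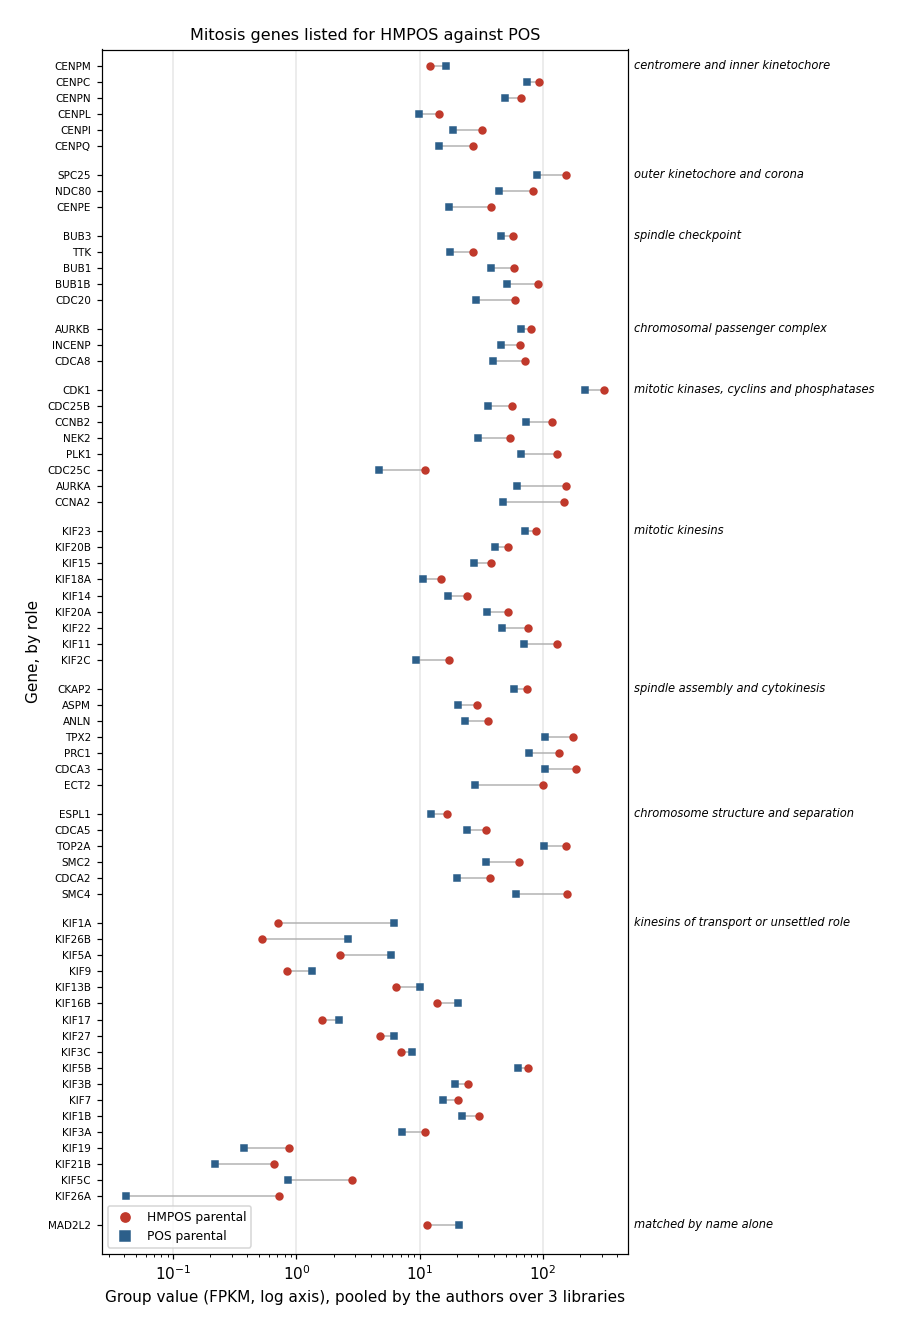
Group FPKM (horizontal log axis) of the 66 listed genes of HMPOS against POS (vertical axis, by role), with a red circle for parental HMPOS and a blue square for parental POS cells, each pooled by the authors over 3 libraries. Among the 47 genes of the upper 8 role groups CENPM alone has its red circle to the left, whereas the transport kinesins split 9 to 9.

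The HMPOS and HMPOS against POS comparisons share the parental HMPOS libraries, whose values differed between the tables by at most 0.128% over 16 genes, so their ratios are not independent. For CENPQ the values were 15.002 FPKM in extravasated HMPOS, 27.01 FPKM in parental HMPOS and 14.3 FPKM in parental POS cells. CDK1 was at 233, 316 and 219 FPKM in the same order, and NDC80 at 57.7, 84.04 and 43.8 FPKM. For CENPE the values in this order were 24.9, 37.7 and 17.4 FPKM. Under the reading of the names given above, parental HMPOS cells had the highest value of the 3 groups for these 4 genes. With the names exchanged, extravasated HMPOS cells would have it. The order was another for KIF19, at 1.83, 0.863 and 0.376 FPKM, and for KIF26B, at 1.298, 0.529 and 2.602 FPKM. Across the lines, 46 genes of the 8 mitosis role groups were listed for both D17 and HMPOS against POS, and 36 of them had more FPKM in parental HMPOS than in parental D17 cells. Their parental values in D17 and HMPOS had a Spearman correlation of 0.75 over these 46 genes, which share libraries within each line and come from tables normalized separately. All 46 passed both listings, in which such genes were mostly higher in parental than in extravasated D17 cells and in HMPOS than in POS. The count of 36 therefore depends on that selection, and the share over all listed genes was not computed.

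**Figure D5:**
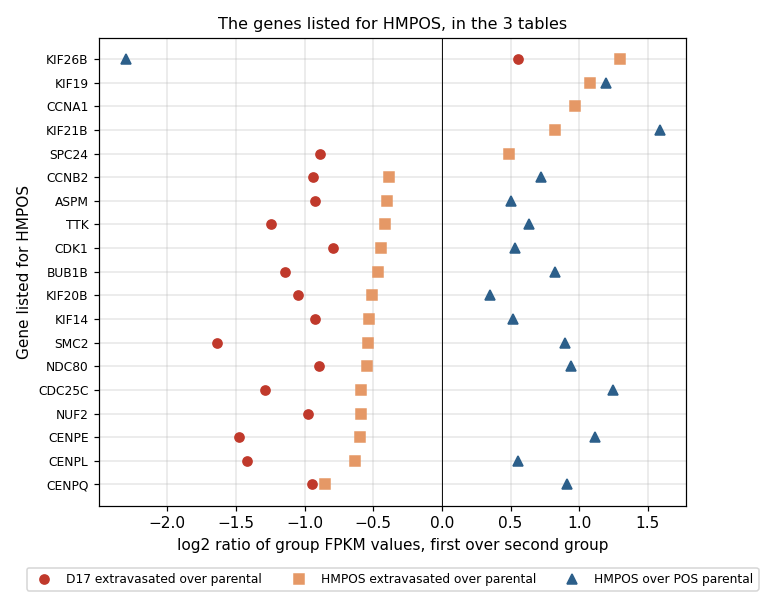
Log2 ratio of group FPKM values (horizontal axis) for the 19 genes listed for HMPOS (vertical axis), with red circles for extravasated over parental D17, orange squares for extravasated over parental HMPOS and blue triangles for parental HMPOS over POS. For the lower 14 genes the red and orange symbols are left of 0, with the orange ones nearer to it; squares and triangles share the parental HMPOS libraries.

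Genes of the same pathway that the symbol rule leaves out were read from 5 lists with 109 genes: condensin and cohesin, kinetochore assembly, the anaphase promoting complex, the spindle and centrosome, and regulators of mitotic entry and transcription. D17 listed 80 of them, of which 77 were lower and 3 higher in extravasated cells under the reading of the names given above. Of all genes listed for D17, 45.8% were lower and 54.2% higher. Past a 2-fold difference, 46 of the 80 were lower, beside 8.50% of all listed genes. The median log2 ratio of the 80 was -1.05. The lowest was MIS18A, which helps to load CENPA onto the centromere, at 8.29 FPKM after extravasation and 37.7 FPKM in the parental line and a log2 ratio of -2.19. CEP55, of the final cut between daughter cells, was at 10.3 FPKM after extravasation and 34.2 FPKM in the parental line, and CCNF, the cyclin of an SCF ubiquitin ligase, at 13.2 FPKM after extravasation and 37.9 FPKM in the parental line. The 3 higher genes were RBL2, LIN37 and MAU2. RBL2, which encodes the pocket protein p130, was at 10.4 FPKM after extravasation and 5.75 FPKM in the parental line, and LIN37, its partner in the DREAM complex that represses cell cycle genes, at 21.7 FPKM after extravasation and 15.6 FPKM in the parental line. Other listed genes of that complex were lower: LIN9, LIN52, LIN54, RBL1 and E2F4, with log2 ratios of -0.94, -0.84, -0.78, -0.73 and -0.47. MAU2, a cohesin loader, was at 10.02 FPKM after extravasation and 6.64 FPKM in the parental line. FOXM1 and MYBL2, transcription factors of G2 and M phase genes, were lower, with FOXM1 at 15.1 FPKM after extravasation and 34.6 FPKM in the parental line and MYBL2 at 47.5 FPKM after extravasation and 135 FPKM in the parental line.

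HMPOS listed 17 of the 109 genes, all 17 lower in extravasated cells under the same reading, beside 33.0% of all listed genes. None was past a 2-fold difference, whereas 4.79% of all listed genes were lower past it. The median log2 ratio was -0.50. KNL1, the platform for checkpoint proteins at the kinetochore, was the lowest, at 12.2 FPKM after extravasation and 19.9 FPKM in the parental line. E2F8, a repressor of the E2F family, was at 12.5 FPKM after extravasation and 19.8 FPKM in the parental line, and DEPDC1 at 24.2 FPKM after extravasation and 36.3 FPKM in the parental line. The ratios nearest to 0 were those of NIPBL, CDC16 and STIL, at -0.41, -0.43 and -0.43. HMPOS against POS listed 74, with 63 higher and 11 lower in HMPOS, beside 47.7% and 52.3% of all listed genes. The median was 0.65. TRIP13, which disassembles the checkpoint complex, was at 67.7 FPKM in HMPOS compared with 23.8 FPKM in POS, PLK4, the kinase of centriole duplication, at 29.95 FPKM in HMPOS compared with 11.2 FPKM in POS, and SKA2, of a microtubule-binding complex at the kinetochore, at 59.97 FPKM in HMPOS compared with 27.005 FPKM in POS. Among the lower ones were 2 subunits of the anaphase promoting complex, ANAPC13 at 84.03 FPKM in HMPOS compared with 256 FPKM in POS and ANAPC16 at 44.6 FPKM in HMPOS compared with 77.6 FPKM in POS, and the condensin II subunit NCAPH2 at 15.9 FPKM in HMPOS compared with 29.1 FPKM in POS.

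The listed genes were spread over the genome: the 70 of D17 lie on 31 of the 39 chromosomes that hold genes listed for D17. Coordinates are those of the deposited tables, for CanFam3.1 by the sample records, and the tables do not say whether starts count from 0 or 1. BIRC5 is listed on chromosome 9 from 2713229 to 2957441, CDK1 on chromosome 4 from 12885973 to 12912553, SMC2 on chromosome 11 from 60091546 to 60149518, KIF15 on chromosome 20 from 43454558 to 43538060 and ECT2 on chromosome 34 from 36896959 to 36960471. The kit was directional by the sample records, but whether counting used strand is not stated. A listed span can take in neighbouring genes, and for 6 of the 85 genes it overlaps that of another gene listed in the same comparison. Besides those already named, these are CDCA8, CDC25B and KIF20A, which overlap 3 genes, SIGLEC1 and CDC23. In the RefSeq gene table of the dog assembly UU_Cfam_GSD_1.0, 105 symbols match the rule. All 85 listed genes are among them, and 20 were listed in no comparison. Those include CCNB1, the main mitotic cyclin B, the proliferation marker MKI67, PTTG1, which encodes securin, the checkpoint gene MAD2L1, CENPF, CENPT and KIF4A. For these genes no value was analysed here, and whether they were expressed or tested is unknown.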

How the data were processed

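RNA-seq libraries of 5 groups of canine cells, 3 per group, were compared through 3 deposited tables. The authors deposited 1 FPKM value per group and gene, pooled over the libraries of the group, and only rows marked significant. Per the labels, Trimmomatic 0.38, TopHat2, Cufflinks and Cuffdiff were used with CanFam3.1, while the article's methods name STAR, voom and limma. The annotation version is not given in the sources used here. The tables also hold the authors' own log2 fold changes (second over first group, the reverse of the ratios here), test statistics, p-values and q-values, which were not used here.

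Groups were taken from the sample titles, and table columns were mapped to groups by name. Log2 ratios were computed from the 2 group values without a pseudocount. A gene listed at 0 in 1 group has no ratio but enters the counts. That applied to 8 genes for D17, 3 for HMPOS and 28 for HMPOS against POS, and 0 members. A 2-fold difference was the threshold for counts. Without values per library or depths, no test, SD or interval was made. Members, lists and role groups were chosen with earlier results of these data known. Named genes were those past 2-fold, those listed in both lines, the highest and lowest ratios and levels, CENPQ and, within role groups, further members. In the other lists they were the 3 highest and 3 lowest ratios. FOXM1, MYBL2, LIN9, LIN52, LIN54, RBL1 and E2F4 were added after their values were seen. The code was tested on simulated data. Promoter motifs were planned, but no sequence was used here. Calculations ran in Python 3.11.15 with pandas 2.3.3, numpy 2.4.6 and scipy 1.17.1, and plots in matplotlib 3.10.9.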

Additional observations from a re-analysis of the deposited data

How the results depend on the processing

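The alternatives changed the fold threshold, the filter on low values, the pseudocount, the centring and the member list. The number of genes lower past the fold in extravasated D17 cells stayed between 42 and 67, beside 45 in the main count, under all 6 alternatives. The number higher in D17, 1 in the main count, was 3 at any fold, 2 above 1.5-fold, and 0 with a filter of 1 FPKM, with a pseudocount of 1 or without the transport kinesins and name matches. In HMPOS, the number higher, 2 in the main count, was 5 at any fold, 4 above 1.5-fold, and 0 with a pseudocount, after centring or without the transport kinesins. The number lower, 0 in the main count, was 14 at any fold, 5 above 1.5-fold and 11 after centring on the median of all listed genes. For HMPOS against POS, the number higher, 11 in the main count, was 55 at any fold, 34 above 1.5-fold, 28 after centring and 7 without the transport kinesins and MAD2L2. The number lower, 3 in the main count, was 11, 6, 3 and 0 in the same order. The median log2 ratio of D17 was -1.11 with a pseudocount, -1.53 after centring and -1.15 without the transport kinesins and name matches. That of HMPOS was -1.05 after centring and -0.52 without the transport kinesins. That of HMPOS against POS was 0.58 with the filter of 1 FPKM, 0.55 with a pseudocount, 0.92 after centring and 0.71 without the transport kinesins and MAD2L2. Of 155 single ratios, 2 changed direction, both after centring: SPC24 in HMPOS, to -0.0919, and KIF3C in HMPOS against POS, to 0.00857. Centring used a median over genes selected for being different, which need not be a neutral reference. No paired analysis was possible because each group has a single pooled value, and fits per library or without a replicate could not be made for the same reason. The promoter alternative was not run. The unknown depth matters most for members near or below 1 FPKM, such as KIF17, KIF19, KIF26A and CCNA1.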
